A study of Homo sapiens with 30 samples.

Results

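Fatty acid synthesis, desaturation, elongation, activation, oxidation and assembly into glycerolipids were followed through 38 genes, taken by gene symbol from a list drawn up with earlier results of these data known. The rule itself uses no measured value. All 38 had a row in both expression tables, out of 26443 genes with values. They fall into 8 roles: supply of acetyl-CoA and NADPH, cytosolic synthesis, mitochondrial synthesis, elongation, desaturation, activation to acyl-CoA, mitochondrial oxidation, and glycerolipid assembly. The cells were LNCaP, a human prostate cancer line of luminal type that responds to androgen, and the series, by its title, concerns the stability of FOXA1 protein under Polycomb and a BUB3 and USP7 deubiquitinase complex. These libraries measure RNA only.

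There were 30 libraries in 10 groups of 3, from 3 experiments that are named here after their vector or agent. In the pLKO experiment LNCaP cells were infected for 5 days with the pLKO control vector or with an shRNA against USP7 (shUSP7-1 in the labels, written shUSP7 below), BUB3 (shBUB3) or FOXA1 (shFOXA1). In the siRNA experiment cells were transfected for 4 days with a control siRNA (siCtrl) or an siRNA against EZH2 (siEZH2). In the pGIPZ experiment cells received the pGIPZ control, an shRNA against FOXA1 (shFoxA1), or this shRNA together with HA-tagged wild-type FOXA1 (shFoxA1 WT) or with HA-tagged K295A FOXA1 (shFoxA1 K295A), again for 5 days. The sample range that carries this time in the labels leaves out the third shFoxA1 K295A library. All cells grew in RPMI medium with serum, so each group, controls included, had lipid from serum. The labels name 1 shRNA or siRNA per target. Whether the 3 libraries of a group came from different cultures is not given, and the spread behind each p-value may therefore be technical.

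Fatty acid synthesis starts in the cytosol. ACLY and ACSS2 make acetyl-CoA from citrate and acetate, SLC25A1 carries citrate out of the mitochondrion, ME1 makes NADPH, ACACA and ACACB make malonyl-CoA, and FASN joins these units into palmitate. ELOVL enzymes lengthen the chain, SCD and the FADS enzymes insert double bonds, and ACSL enzymes activate fatty acids to acyl-CoA. Acyl-CoA is then either passed through CPT1A and CPT2 into mitochondrial oxidation or joined to glycerol by GPAM, AGPAT2, LPIN1 and DGAT enzymes. The transcription factors SREBF1 and SREBF2 induce much of the synthetic arm, and INSIG1, itself one of their targets, holds them back when sterols are plentiful. Prostate cancer cells, unlike most normal epithelia, rely heavily on making fatty acids themselves, and androgen signalling is known to drive many of these genes.

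Levels are FPKM in the pLKO and siRNA experiments and RPKM in the pGIPZ experiment, both of them read numbers divided by gene length and by the reads of the library. The 2 tables were made separately, so tests stayed within an experiment. Read depth is known only in relative terms, from the steps between low values. Relative to the first pLKO library it was 0.900 to 1.30 (pLKO experiment) and 0.602 to 0.831 (siRNA experiment), and relative to the first pGIPZ library 0.847 to 1.30. The third shBUB3 library stood apart, with values summing to 367614 against 235344 to 306578 in the other libraries of its experiment. USP7 had a level of 28.2 ± 0.517 (SD, n = 3) in pLKO and 6.21 ± 0.143 in shUSP7. BUB3 had 36.3 ± 2.34 in pLKO and 4.00 ± 0.629 in shBUB3. EZH2 had 12.6 ± 0.908 in siCtrl and 4.98 ± 0.128 in siEZH2. Each targeted RNA was lower in the libraries labelled with its knockdown, and so was FOXA1 in both of its own. FOXA1 had 116 ± 0.191 in pLKO and 59.0 ± 1.68 in shFOXA1, and 132 ± 2.38 in pGIPZ and 82.5 ± 1.87 in shFoxA1. With re-expression FOXA1 stood at 152 ± 0.899 in shFoxA1 WT and 151 ± 2.90 in shFoxA1 K295A, above the control. The targets also moved in groups where they were not targeted. EZH2 RNA was lower in shBUB3 (-1.29 ± 0.06 (adjusted p = 6.6e-09)), shFOXA1 (-0.98 ± 0.06 (adjusted p = 4.1e-08)) and shUSP7 (-0.90 ± 0.06 (adjusted p = 1.4e-07)), beside -1.18 in siEZH2. BUB3 was lower in shFOXA1 (-1.17 ± 0.08 (adjusted p = 1.2e-07)) and shUSP7 (-0.34 ± 0.08 (adjusted p = 0.00293)), and FOXA1 in siEZH2 (-0.54 ± 0.07 (adjusted p = 5.8e-05)). USP7 had -0.35 ± 0.05 (adjusted p = 8.0e-05) in shFOXA1, 0.20 ± 0.05 (adjusted p = 0.00519) in shBUB3 and 0.22 ± 0.04 (adjusted p = 2.5e-04) in shFoxA1, and BUB3 -0.20 ± 0.08 (adjusted p = 0.0489) in siEZH2. FOXA1 had 0.16 ± 0.08 (adjusted p = 0.0856) in shUSP7 and 0.14 ± 0.08 (adjusted p = 0.127) in shBUB3, neither past the test.

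Markers of the cells were read beside the members. All 10 of 10 luminal prostate markers reached a value of 1 in at least 3 libraries, and their summed level was lower in each of the 5 knockdowns without overlap, from 2407 to 2458 in pLKO to 1326 to 1392 in shUSP7, 1678 to 1957 in shBUB3 and 1736 to 1828 in shFOXA1. It was 2419 to 2521 in siCtrl and 737 to 838 in siEZH2, and 2712 to 2760.5 in pGIPZ and 2369 to 2415 in shFoxA1. With re-expression the sum was lower still, 1977 to 2027 in shFoxA1 WT and 1923 to 1944 in shFoxA1 K295A. KLK3 alone had means of 1279 in shFoxA1, 875 in shFoxA1 WT and 833 in shFoxA1 K295A. By gene, 1 of 10 was called higher and 6 lower in shUSP7, where 29.1% and 33% of all genes were. The counts were 3 and 7 in shBUB3 (33.3% and 32% of all genes) and 2 and 7 in shFOXA1 (25.2% and 45.1%). They were 1 and 9 in siEZH2 (median -0.96, with 20.3% and 43% of all genes) and 5 and 5 in shFoxA1 (25% and 24.2%). Against shFoxA1, 5 were higher and 4 lower in shFoxA1 WT, where 36.6% and 18.9% of all genes were. The counts were also 5 and 4 in shFoxA1 K295A (38.7% and 18.3% of all genes). The medians were 0.05 and 0.04, so the lower sum was not a fall of most of these markers. In the pLKO and siRNA experiments most of these markers were thus lower in the groups where fatty acid genes were, and their part in the results below was not tested.

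Other markers were low but not all silent. None of 4 adipocyte markers reached 1 in 3 libraries (0 of 4, highest sum 0.424). Of 7 stromal markers COL1A1, COL3A1 and ACTA2 did, of 4 basal markers KRT14 and KRT15, of 5 immune markers CD68, and of 3 endothelial markers VWF, while PTPRC, PECAM1 and CDH5 did not pass 0.0278, 0.0393 and 0.0522 in any library. The stromal sum was 6.95 to 7.45 in pLKO and 16.2 to 19.2 in shBUB3, with ACTA2 at means of 2.81 and 11.9. It was 5.48 to 5.95 in siCtrl and 13.7 to 16.9 in siEZH2, with COL1A1 at 3.26 and 10.2. CD68 went from a mean of 13.2 in pGIPZ to 33.7 in shFoxA1, KRT14 from 2.58 to 6.47, and VWF from 1.73 in pLKO to 4.38 in shUSP7 and 0.173 in shFOXA1. The part of these in the results was not tested either.

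The fatty acid genes ranged from among the most abundant RNAs of these cells to absent. FASN was the highest of the 38 in all 3 controls, at 553 ± 19.5 in pLKO, 679 ± 96.9 in siCtrl and 351 ± 8.79 in pGIPZ, which ranked 55, 34 and 78 among 26443 genes. SCD, FADS2, ELOVL5 and ACADVL followed, in an order that differed between controls. At the other end, ELOVL4, ACSL5 and ACSL6 did not reach 1 in 3 libraries of any experiment, and ELOVL2 did so only in the pLKO experiment, where it was highest in shBUB3 at 1.66, 1.43 and 1.29. That left 35 members tested in the pLKO experiment and 34 in each of the other experiments. A member that passed this filter only through the group where it is high had to differ, which holds for ELOVL2 in shBUB3 and for SCD5 in siEZH2. In the pLKO experiment SCD5 reached 1 in 1 control library and in all libraries of shBUB3 and shFOXA1, and ACACB in all controls and 2 shFOXA1 libraries. ACACB was at most 0.792 in shUSP7 and 0.878 in shBUB3, so it would not have passed without the controls, where it was higher. Its lower calls in shUSP7 and shBUB3 lean on the filter and are descriptions only.

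Most members changed in most knockdowns, as did most genes of these cells. In shUSP7 against pLKO, 10 of 35 members were higher and 17 lower at an adjusted p under 0.05 (limma, adjusted over all 12524 genes tested), where 62.2% of all genes passed the test, 29.1% higher and 33% lower. In shBUB3, 13 were higher and 18 lower, against 33.3% and 32% of all genes, with 65.2% called. Without the third shBUB3 library these counts were 12 and 18. The 13 included ELOVL2, which passed the filter only through shBUB3 and so had to differ. The 17 lower in shUSP7 and the 18 lower in shBUB3 included ACACB, which needed the higher controls to pass the filter. In shFOXA1, 11 were higher and 20 lower, against 25.2% and 45.1% of all genes, with 70.3% called. The counts for members therefore say little by themselves. They are best read by role and by size of change, and the median log2 fold change of the members was -0.16 in shUSP7, -0.21 in shBUB3 and -0.27 in shFOXA1 beside all-gene medians of -0.02, 0.01 and -0.15.

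Desaturases stood among the members that fell 2-fold or more in each shRNA group of the pLKO experiment. In shUSP7, 10 members were called and at least 2-fold lower and 1 was 2-fold higher, where 5.79% and 2.64% of all genes were. The numbers were 3 and 1 in shBUB3 (5.64% and 2.71% of all genes), and 5 and 2 in shFOXA1 (8.87% and 4.28%). Of the 5 desaturases, 3 were in the first of these lists, 3 in the second and 2 in the third, and the 3 comparisons share the pLKO libraries. In siEZH2 against siCtrl, 5 of 34 members were higher and 24 lower, against 20.3% and 43% of all 11908 genes tested, with 63.3% called. Leaving out each library in turn gave 2 to 5 members higher, 2 without the second siEZH2 library and 3 without the first siCtrl, the first siEZH2 or the third siEZH2 library. There 8 members fell at least 2-fold and 1 was called and as much higher (7.03% and 2.59% of all genes). The latter was SCD5, which passed the filter only through siEZH2 and so had to differ, and the members' median was -0.66 beside -0.16 over all genes.

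In the pGIPZ experiment fewer members changed by 2-fold. In shFoxA1 against pGIPZ, 11 of 34 members were higher and 13 lower, against 25% and 24.2% of all 12563 genes tested, with 49.2% called. The members' median was -0.04, beside 0.00 over all genes. Here 2 members were at least 2-fold lower and 0 at least 2-fold higher, where 0.899% and 1.94% of all genes were. FOXA1 itself had a log2 fold change of -0.67 ± 0.02 (SE) here and -0.96 ± 0.08 in the pLKO experiment, from separate tables, and this difference was not tested.

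The direction of small changes depended on how libraries were scaled. With median-ratio scaling between libraries in place of the deposited library totals, the median of all genes moved by 0.15 on the log2 scale in shFOXA1, 0.18 in siEZH2, -0.11 in shFoxA1 K295A against pGIPZ and -0.10 in shFoxA1 K295A against shFoxA1. The share of higher genes among those called went from 35.9% to 49.2% in shFOXA1 and from 32.1% to 51.2% in siEZH2. In the same 2 comparisons the members higher and lower went from 11 and 20 to 14 and 16, and from 5 and 24 to 5 and 23. Fold changes near these shifts in size are given below as values of the deposited scaling.

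**Figure D1:**
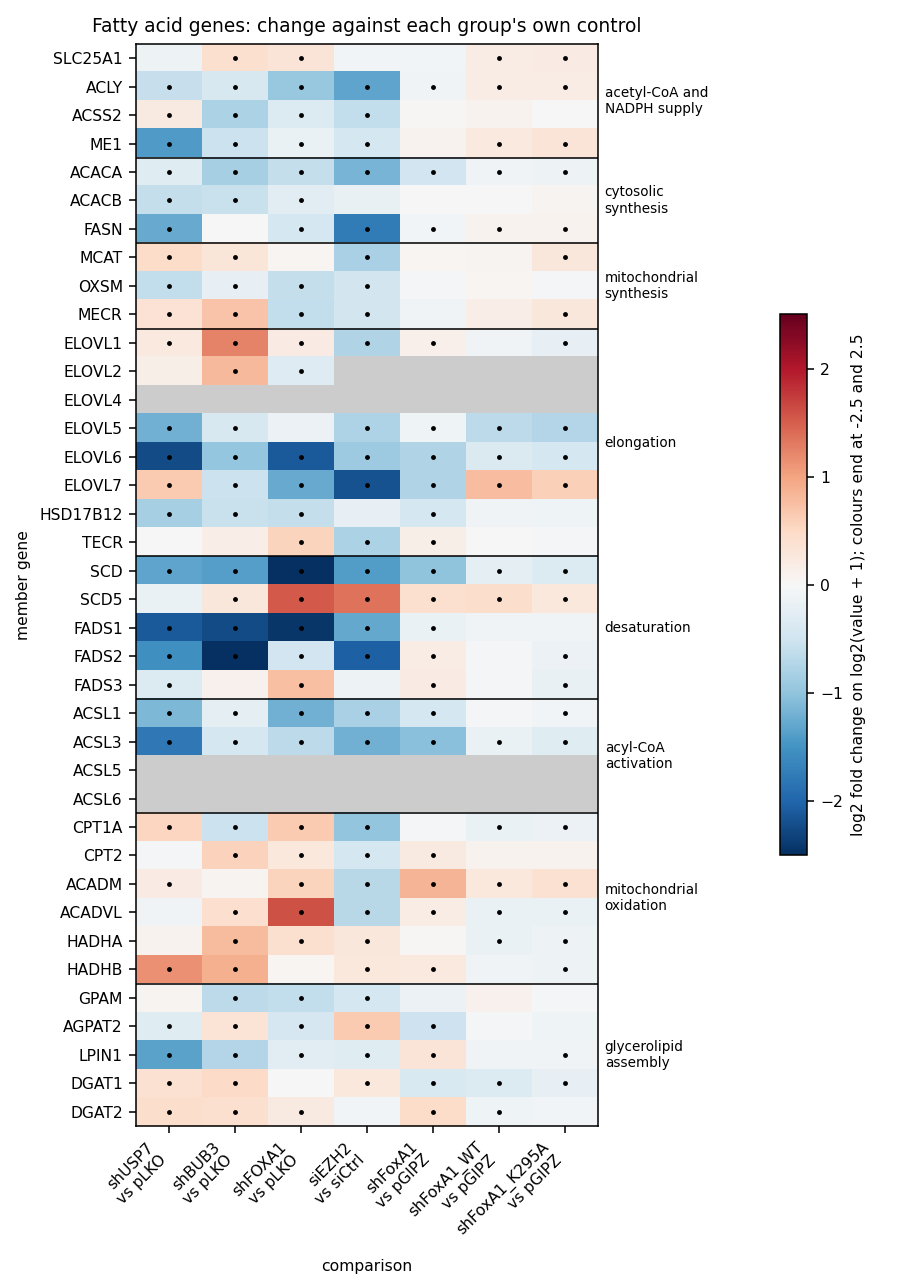
Log2 fold change of each of the 38 member genes (rows, grouped by role) in the 7 groups against their own control (columns), on log2(value + 1), with colours from -2.5 (blue) to 2.5 (red), grey for genes below the filter and a dot where the adjusted p was under 0.05. SCD, FADS1 and ELOVL6 are blue in all 5 knockdowns, and 5 of the 6 oxidation genes are red with a dot in shFOXA1.

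The deepest falls of any member in shBUB3 and in shFOXA1 were those of desaturases. SCD, the stearoyl-CoA desaturase that makes oleate and palmitoleate (chromosome 10, 100347124 to 100364834, plus strand, GENCODE 29 on GRCh38), had levels of 241, 216 and 231 in the 3 pLKO libraries, 89.4, 86.8 and 99.5 in shUSP7, 89.9, 101 and 73.4 in shBUB3 and 33.4, 34.2 and 32.9 in shFOXA1. All 9 knockdown libraries lay below all 3 controls, with shFOXA1 the lowest. The log2 fold changes were -1.31 ± 0.10 (adjusted p = 4.1e-07) in shUSP7, -1.38 ± 0.10 (adjusted p = 2.5e-07) in shBUB3 and -2.74 ± 0.10 (adjusted p = 6.3e-10) in shFOXA1, with SE after ± here and below. Tested directly, shFOXA1 was lower than shUSP7 by -1.43 ± 0.10 (adjusted p = 1.4e-07) and lower than shBUB3 by -1.35 ± 0.10 (adjusted p = 1.8e-07), where 70.9% and 73.4% of all genes were called in these contrasts. In the siRNA experiment SCD was at 339.8, 316 and 318 in siCtrl and 128, 119.6 and 119 in siEZH2, groups that did not overlap, a change of -1.40 ± 0.06 (adjusted p = 1.2e-07). In the pGIPZ experiment it was at 156, 152 and 150.0 in the control and 74.8, 75.3 and 75.6 in shFoxA1, again without overlap, a change of -1.01 ± 0.02 (adjusted p = 9.3e-12). In bulk RNA, less RNA per cell and fewer cells of a kind that express the gene cannot be told apart, here or for any gene below.

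SCD5, the second stearoyl-CoA desaturase, moved the other way where it moved most. It was low in controls, at 1.03, 0.874 and 0.799 in pLKO, and reached 4.25, 4.59 and 4.59 in shFOXA1, a change of 1.53 ± 0.07 (adjusted p = 3.1e-09). In siCtrl it was at 0.526, 0.441 and 0.466 and in siEZH2 at 2.78, 2.82 and 2.70, a change of 1.35 ± 0.09. Only the siEZH2 libraries took SCD5 past the filter there, so that change is a description with no test. Because a value of 1 was added before taking logs, these changes understate the ratio of such low values, and with a pseudocount of 0.1 the change in siEZH2 was 2.31. In shFoxA1 of the pGIPZ experiment SCD5 rose from 2.16 ± 0.201 to 3.16 ± 0.229, by 0.40 ± 0.10 (adjusted p = 0.00517). Its highest level, in shFOXA1, was still below the lowest level of SCD in any group.

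FADS1 and FADS2, the delta-5 and delta-6 desaturases of polyunsaturated fatty acid synthesis, are neighbours on chromosome 11 and did not move alike. FADS1 (61799625 to 61829318, minus strand) had levels of 24.7, 23.3 and 23.9 in pLKO, 5.31, 4.08 and 5.10 in shUSP7, 4.64, 4.67 and 3.56 in shBUB3 and 3.58, 3.81 and 3.51 in shFOXA1. All 3 knockdowns lay far under the control, and every shFOXA1 library lay below every shUSP7 library. The log2 fold changes were -2.10 ± 0.10 (adjusted p = 6.9e-09), -2.25 ± 0.10 (adjusted p = 3.6e-09) and -2.43 ± 0.10 (adjusted p = 1.3e-09). FADS2 (61792980 to 61867354, plus strand) had 225, 213 and 221 in pLKO, 71.7, 73.3 and 81.4 in shUSP7, 19.4, 23.3 and 19.8 in shBUB3 and 156, 166 and 153 in shFOXA1. Here the knockdowns stood well apart, with no overlap among the 4 groups, at -1.53 ± 0.07 (adjusted p = 1.0e-08), -3.34 ± 0.07 (adjusted p = 7.0e-11) and -0.47 ± 0.07 (adjusted p = 1.2e-04), the last -0.30 with median-ratio scaling. The fall of FADS2 in shBUB3 was the largest of any member in any comparison, and shFOXA1 was higher than shBUB3 by 2.87 ± 0.07 (adjusted p = 6.0e-11) in the direct contrast.

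In siEZH2 both were lower. FADS1 went from 43.4, 39.9 and 42.5 in siCtrl to 17.8, 15.7 and 16.8, by -1.27 ± 0.07 (adjusted p = 4.0e-07), and FADS2 from 288, 272 and 294 to 71.4, 63.9 and 70.3, by -2.04 ± 0.07 (adjusted p = 3.6e-08). In the pGIPZ experiment, by contrast, FADS1 went only from 21.2, 22.3 and 21.3 to 18.6, 19.3 and 19.8 in shFoxA1, by -0.16 ± 0.05 (adjusted p = 0.0148), and the call was lost without the second pGIPZ or the first shFoxA1 library (adjusted p = 0.0577 and 0.0581). FADS2 was slightly higher, from 221, 231 and 227 to 259, 262 and 250.3, by 0.18 ± 0.03 (adjusted p = 1.4e-04). FADS3, a related desaturase, rose in shFOXA1 from 9.56 ± 0.377 to 16.7 ± 0.767, by 0.75 ± 0.08 (adjusted p = 5.2e-06), and fell in shUSP7 by -0.33 ± 0.08 (adjusted p = 0.00322). Since FADS1 lies within the annotated span of FADS2 on the other strand, and the sources do not say whether counting used strand, reads in the shared exons cannot be assigned with certainty.

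The promoter windows of SCD, FADS1 and FADS2 are shown because these genes were among those with the deepest falls and the 2 FADS genes share a locus. Each runs from 250 bases before to 50 after a start in RefSeq (GRCh38.p14), 5′ to 3′ on the gene's strand, with the CCAAT box (CCAAT, either strand) in capitals.
SCD chr10:100346983-100347282 (+): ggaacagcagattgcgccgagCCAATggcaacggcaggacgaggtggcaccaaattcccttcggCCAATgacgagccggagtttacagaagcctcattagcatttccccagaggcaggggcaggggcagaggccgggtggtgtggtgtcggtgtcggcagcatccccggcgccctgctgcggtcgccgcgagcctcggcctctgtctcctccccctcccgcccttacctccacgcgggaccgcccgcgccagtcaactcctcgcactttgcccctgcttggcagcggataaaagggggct
FADS1 chr11:61816954-61817253 (-): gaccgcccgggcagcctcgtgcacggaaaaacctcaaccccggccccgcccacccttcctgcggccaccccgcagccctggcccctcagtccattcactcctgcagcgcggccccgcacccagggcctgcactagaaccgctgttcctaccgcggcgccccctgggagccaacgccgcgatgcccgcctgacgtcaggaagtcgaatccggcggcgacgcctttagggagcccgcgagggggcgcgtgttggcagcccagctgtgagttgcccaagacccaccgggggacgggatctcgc
FADS2 chr11:61816154-61816453 (+): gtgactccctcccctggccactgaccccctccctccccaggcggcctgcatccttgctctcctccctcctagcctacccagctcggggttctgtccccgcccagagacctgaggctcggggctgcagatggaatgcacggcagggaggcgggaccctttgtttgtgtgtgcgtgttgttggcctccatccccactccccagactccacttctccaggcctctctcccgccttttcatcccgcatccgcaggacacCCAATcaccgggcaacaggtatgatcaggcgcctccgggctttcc
The SCD window held CCAAT at 229 and 186 bases before the start, the FADS2 window held it 6 bases after the start, and the FADS1 window held none. The starts of the FADS1 and FADS2 windows shown lie 599 bases apart on opposite strands. Another FADS2 window, of a different start (chr11:61815953-61816252), is not shown and held no CCAAT. Of all 35116 promoter windows in the table, 34.6% held CCAAT, and of the 55 windows that belong to 33 of the 38 members, 34.5% did. The sterol regulatory element, searched as TCACNCCAC on both strands, was in 1.13% of all windows and in 2 of the members' windows, an alternative start of ACSL1 and ACSL6. The E-box CACGTG was in 7.26% of all windows and in 2 of the members' windows, those of ELOVL4 and ELOVL5. In the members' windows no match shared bases with a match of another motif, and a match describes letters only.

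**Figure D2:**
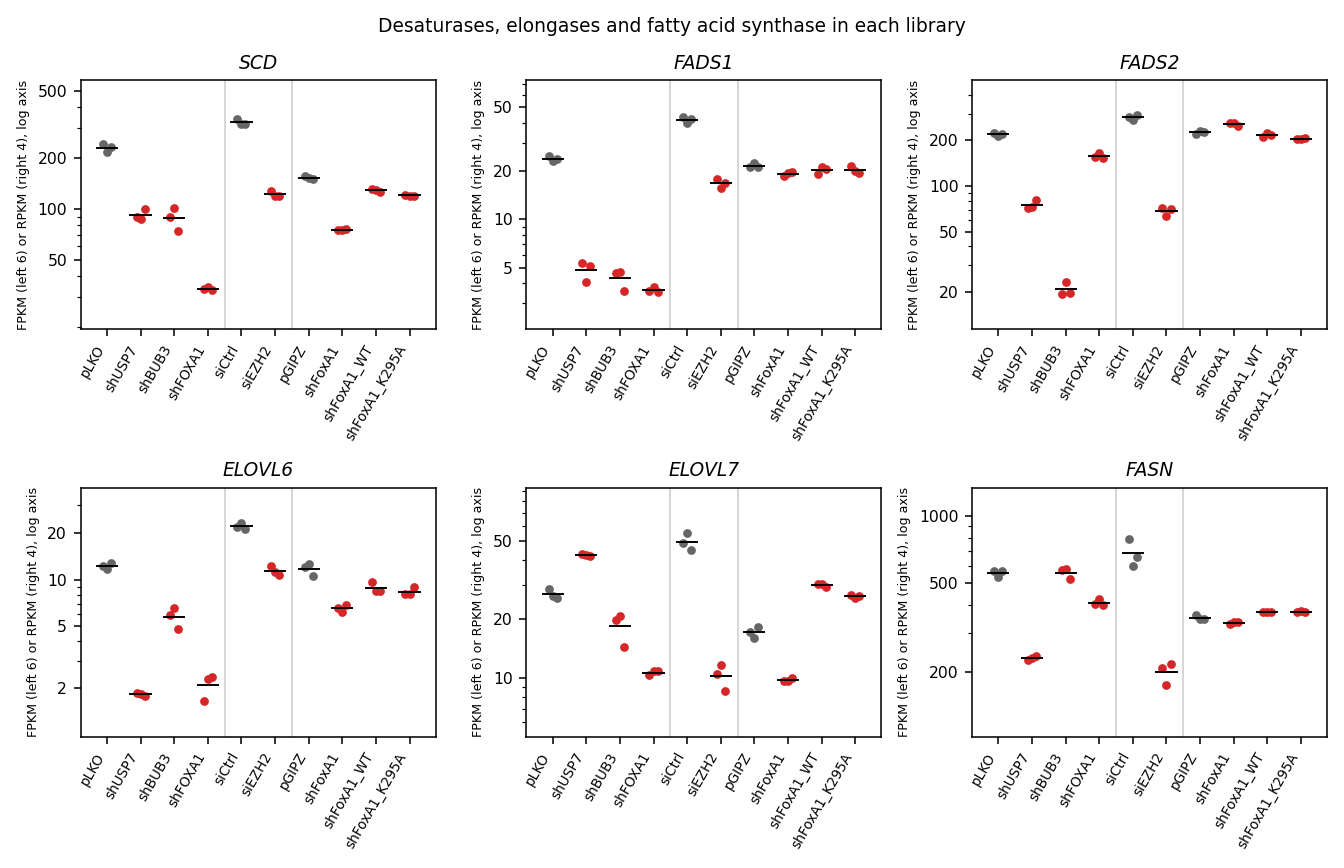
Level of SCD, FADS1, FADS2, ELOVL6, ELOVL7 and FASN in each of the 30 libraries (points; controls grey, other groups red) with group means (lines), as FPKM in the left 6 groups and RPKM in the right 4, on log axes that differ between panels; vertical lines part the 3 experiments. SCD is low in every knockdown, FADS1 is low in the 3 pLKO knockdowns at 3.51 to 5.31, FADS2 is lowest in shBUB3 at 19.4 to 23.3, and ELOVL7 is above its control in shUSP7 and after FOXA1 re-expression.

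Among the elongation genes ELOVL6 was lower in all 5 knockdowns. It lengthens palmitate to stearate, the substrate of SCD (chromosome 4, 110045846 to 110199199, minus strand). Its levels were 12.3, 11.7 and 12.8 in pLKO, 1.86, 1.82 and 1.79 in shUSP7, 5.93, 6.60 and 4.82 in shBUB3 and 1.66, 2.29 and 2.37 in shFOXA1. The control was above every knockdown library, and shUSP7 and shFOXA1 were the lowest and overlapped each other. The changes were -2.23 ± 0.11 (adjusted p = 8.9e-09) in shUSP7, -0.98 ± 0.11 (adjusted p = 8.1e-06) in shBUB3 and -2.10 ± 0.11 (adjusted p = 8.6e-09) in shFOXA1. In siEZH2 it went from 22.0 ± 0.839 to 11.3 ± 0.770, by -0.91 ± 0.08 (adjusted p = 4.0e-06), and in shFoxA1 from 11.7 ± 1.06 to 6.56 ± 0.332, by -0.75 ± 0.07 (adjusted p = 4.2e-06).

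The ELOVL6 window is shown because it was the sole member window with the forkhead core TGTTTAC, searched on both strands and marked in capitals as its reverse complement.
ELOVL6 chr4:110198566-110198865 (-): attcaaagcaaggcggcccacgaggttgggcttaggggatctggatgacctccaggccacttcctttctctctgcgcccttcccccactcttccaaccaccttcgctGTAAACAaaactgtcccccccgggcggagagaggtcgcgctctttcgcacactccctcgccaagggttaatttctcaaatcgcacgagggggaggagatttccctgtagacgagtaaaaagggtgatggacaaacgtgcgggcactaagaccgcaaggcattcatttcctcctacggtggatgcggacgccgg
The match lies 143 bases before the start. Of all windows, 3.42% held this core. The related core TGTTTGC was in 3.89% of all windows and in 3 of the 55 member windows, of ACACB, ACSL6 and LPIN1. Other forms of the forkhead motif were not searched.

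ELOVL7, which lengthens saturated very long chains and is induced by androgen in prostate cancer cells, changed in opposite directions in different groups (chromosome 5, 60751791 to 60844389, minus strand). In the pLKO experiment it was at 28.6, 26.4 and 25.6 in the control, 43.2, 42.7 and 42.2 in shUSP7, 20.0, 20.8 and 14.4 in shBUB3 and 10.3, 10.9 and 10.8 in shFOXA1. No group overlapped another, with shUSP7 above the control and the other groups below it. It rose in shUSP7 by 0.65 ± 0.11 (adjusted p = 2.2e-04) and fell in shBUB3 by -0.54 ± 0.11 (adjusted p = 8.4e-04) and in shFOXA1 by -1.25 ± 0.11 (adjusted p = 7.2e-07). The direct contrast of shFOXA1 with shUSP7 gave -1.90 ± 0.11 (adjusted p = 2.5e-08). In siEZH2 it went from 49.3, 55.3 and 45.1 to 10.5, 11.7 and 8.58, by -2.18 ± 0.11 (adjusted p = 2.1e-07), the largest fall of any member there.

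The other elongation genes had their own patterns. ELOVL5, which lengthens polyunsaturated chains, was at 225, 212 and 207 in pLKO and 91.4, 90.4 and 95.5 in shUSP7, with no overlap and a change of -1.21 ± 0.07 (adjusted p = 6.1e-08). It was also lower in shBUB3 (-0.41 ± 0.07 (adjusted p = 4.1e-04)) and siEZH2 (-0.78 ± 0.07 (adjusted p = 5.6e-06)), and in shFOXA1 it had -0.14 ± 0.07 (adjusted p = 0.107), which did not pass the test. ELOVL1, which makes saturated very long chains for sphingolipids, rose in shBUB3. It was at 56.4, 58.1 and 58.0 in pLKO and 132, 128 and 151 in shBUB3, by 1.24 ± 0.06 (adjusted p = 1.6e-08). In siEZH2 it was lower, at 51.3 ± 2.23 against 87.2 ± 1.20, by -0.76 ± 0.06 (adjusted p = 4.1e-06). HSD17B12 and TECR catalyse later steps of every elongation cycle. HSD17B12 fell in shUSP7 by -0.84 ± 0.08 (adjusted p = 2.2e-06), and TECR rose in shFOXA1 by 0.55 ± 0.07 (adjusted p = 2.8e-05) and fell in siEZH2 by -0.80 ± 0.07 (adjusted p = 6.8e-06).

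Cytosolic synthesis divided the knockdowns. FASN, the synthase itself (chromosome 17, 82078333 to 82098332, minus strand), was at 565, 531 and 564 in pLKO and 227, 232 and 235 in shUSP7, groups far apart, a change of -1.25 ± 0.06 (adjusted p = 1.8e-08). In shBUB3 it was at 576, 576 and 522, overlapping the control, with 0.01 ± 0.06 (adjusted p = 0.894). In shFOXA1 it was at 405, 425 and 398, below every control library, with -0.43 ± 0.06 (adjusted p = 8.9e-05), or -0.26 with median-ratio scaling. The contrast of shUSP7 with shBUB3 was -1.26 ± 0.06 (adjusted p = 2.1e-08), where 65.2% of all genes were called. In siEZH2 FASN went from 786, 597 and 654 to 209.7, 175 and 219, without overlap, by -1.75 ± 0.11 (adjusted p = 7.5e-07). In shFoxA1 it was at 328, 336 and 335 against 361, 345 and 347 in pGIPZ, a small fall of -0.08 ± 0.02 (adjusted p = 0.00714).

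ACACA and ACACB are the acetyl-CoA carboxylases of the cytosol and of the mitochondrial surface. ACACA went from 30.9, 29.8 and 26.1 in siCtrl to 13.9, 11.2 and 11.9 in siEZH2, with no overlap, by -1.17 ± 0.10 (adjusted p = 3.7e-06). It fell by less in shBUB3 (-0.82 ± 0.11 (adjusted p = 5.3e-05)), shFOXA1 (-0.59 ± 0.11 (adjusted p = 5.6e-04)) and shFoxA1 (-0.47 ± 0.03 (adjusted p = 5.4e-08)). In shUSP7 its change of -0.31 ± 0.11 (adjusted p = 0.0311) lost the call in 5 of the 6 fits that left out 1 library (adjusted p = 0.0606 to 0.0918 in those 5). ACACB was low throughout, between 0.735 in shUSP7 and 1.98 in shFoxA1 K295A.

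The genes that feed the synthase did not change alike. ACLY was at 179, 165 and 166 in siCtrl and 75.2, 63.7 and 63.2 in siEZH2, without overlap, by -1.33 ± 0.08 (adjusted p = 5.5e-07). In the pLKO experiment it fell by -0.58 ± 0.09 (adjusted p = 2.0e-04) in shUSP7, -0.40 ± 0.09 (adjusted p = 0.00269) in shBUB3 and -0.95 ± 0.09 (adjusted p = 2.8e-06) in shFOXA1. ME1, the cytosolic malic enzyme, was at 32.1, 31.2 and 28.8 in pLKO and 10.7, 10.4 and 11.4 in shUSP7, by -1.42 ± 0.05 (adjusted p = 7.6e-10). It was higher in shFOXA1 than in shUSP7 by 1.26 ± 0.05 (adjusted p = 1.8e-09). Against pLKO, ME1 in shFOXA1 had -0.16 ± 0.05 (adjusted p = 0.0124), a call that median-ratio scaling turned (0.01, adjusted p = 0.855) and that was lost without the first pLKO library (adjusted p = 0.0606). ACSS2 rose in shUSP7 by 0.22 ± 0.05 (adjusted p = 0.00253) and fell in shBUB3 by -0.80 ± 0.05 (adjusted p = 1.0e-07), and the contrast of the 2 was 1.02 ± 0.05 (adjusted p = 1.8e-08). SLC25A1 ranged only from 64.1 in siEZH2 to 99.7 in shBUB3.

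Mitochondrial synthesis, a separate pathway that supplies lipoic acid to mitochondrial enzymes, has 3 genes here: MCAT, OXSM and MECR. In shUSP7 and in shBUB3, MCAT and MECR were higher and OXSM lower. In shFOXA1 OXSM fell by -0.60 ± 0.06 (adjusted p = 3.0e-06) and MECR by -0.61 ± 0.10 (adjusted p = 1.4e-04), and MCAT had 0.05 ± 0.08 (adjusted p = 0.594). In siEZH2 all 3 were lower, MCAT by -0.81 ± 0.07 (adjusted p = 6.5e-06), and median-ratio scaling left OXSM at -0.26 and MECR at -0.27, still called. In shFoxA1 none of the 3 passed the limma test (0 of 3, and 0 at an unadjusted p under 0.05), with log2 fold changes of -0.09 to 0.05.

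Both acyl-CoA synthetases that could be tested were lower in each of the 5 knockdowns. ACSL3, a long-chain acyl-CoA synthetase of the endoplasmic reticulum and lipid droplets and a known androgen target, was at 83.1, 77.5 and 75.0 in pLKO and 21.9, 22.6 and 21.3 in shUSP7, by -1.79 ± 0.08 (adjusted p = 6.1e-09). It went from 85.4, 89.9 and 78.3 in siCtrl to 38.3, 36.3 and 33.9 in siEZH2, by -1.20 ± 0.08 (adjusted p = 7.0e-07). In pGIPZ it was at 121, 120.1 and 117 and in shFoxA1 at 56.8, 56.7 and 58.0, by -1.05 ± 0.02 (adjusted p = 7.3e-12), the largest fall of any member in that comparison. None of these 3 pairs of groups overlapped. In shBUB3 it changed by -0.44 ± 0.08 (adjusted p = 5.4e-04) and in shFOXA1 by -0.66 ± 0.08 (adjusted p = 1.8e-05). ACSL1, the main synthetase of triglyceride-storing and oxidising tissues, was at 85.5, 81.6 and 86.0 in pLKO, 35.8, 38.01 and 40.7 in shUSP7 and 35.0, 36.6 and 36.1 in shFOXA1. These changes were -1.12 ± 0.08 (adjusted p = 1.5e-07) and -1.21 ± 0.08 (adjusted p = 5.1e-08). In shBUB3 it had -0.23 ± 0.08 (adjusted p = 0.019), a call lost without the first or the third pLKO library (adjusted p = 0.0549 and 0.0585). ACSL5 and ACSL6 were below the filter, the former with its highest level, 0.861, 1.53 and 1.11, in shFoxA1.

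Few mitochondrial oxidation genes were lower in the pLKO experiment. Of 6 oxidation genes tested, 3 were higher and 0 lower in shUSP7, 4 higher and 1 lower in shBUB3, and 5 higher and 0 lower in shFOXA1. Of all genes 29.1% were higher and 33% lower in shUSP7, 33.3% and 32% in shBUB3, and 25.2% and 45.1% in shFOXA1. The median log2 fold changes of the 6 were 0.14, 0.50 and 0.47, while those of the 5 desaturases were -1.31, -1.38 and -0.47 and those of all genes -0.02, 0.01 and -0.15. In siEZH2, 2 oxidation genes were higher and 4 lower (20.3% and 43% of all genes), with a median of -0.56 beside -0.16. The higher genes there were HADHA and HADHB, and the call of HADHB was lost without the first siCtrl, the first siEZH2 or the second siEZH2 library (adjusted p = 0.0943, 0.0629 and 0.071) and with no filter (0.0628). In shFoxA1 4 were higher and none lower (0 of 6), where 25% and 24.2% of all genes were, with a median of 0.20 beside 0.00.

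ACADVL, the dehydrogenase that takes the first oxidative step on long chains at the inner membrane (chromosome 17, 7217125 to 7225273, plus strand), had the largest rise of the 6, in shFOXA1. Its levels were 186, 186 and 183 in pLKO and 535, 558 and 586 in shFOXA1, with no overlap and a change of 1.59 ± 0.10 (adjusted p = 6.6e-08). In shBUB3 it was at 227, 224 and 301, with the third library the highest, a change of 0.42 ± 0.10 (adjusted p = 0.00343) that was 0.28 without that library. In shUSP7 it was at 170.4, 166 and 183 and overlapped the control (-0.10 ± 0.10 (adjusted p = 0.433)). The direct contrast of shFOXA1 with shUSP7 was 1.69 ± 0.10 (adjusted p = 4.7e-08). In siEZH2 ACADVL was lower, at 129.7 ± 7.10 against 210.3 ± 7.35, by -0.69 ± 0.07 (adjusted p = 1.1e-05). In shFoxA1 it rose from 309, 313 and 306 to 353, 355 and 345, by 0.18 ± 0.02 (adjusted p = 3.2e-05). Its annotated span overlaps that of DLG4 on the other strand.

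ACADM does the same step on medium chains. It rose in shFOXA1 from 22.4 ± 0.414 to 33.4 ± 1.66, by 0.55 ± 0.04 (adjusted p = 4.2e-07). In shFoxA1 it rose from 17.7, 15.3 and 16.5 to 29.7, 31.4 and 30.8, by 0.86 ± 0.06 (adjusted p = 3.2e-07), the largest rise of any member in that comparison. In siEZH2 it fell by -0.69 ± 0.09 (adjusted p = 1.1e-04). CPT1A, the gate of mitochondrial fatty acid entry, rose in shUSP7 (0.53 ± 0.05 (adjusted p = 1.6e-06)) and shFOXA1 (0.66 ± 0.05 (adjusted p = 1.8e-07)) and fell in shBUB3 (-0.54 ± 0.05 (adjusted p = 1.3e-06)) and siEZH2 (-0.98 ± 0.06 (adjusted p = 8.9e-07)). In shFoxA1 it had -0.04 ± 0.03 (adjusted p = 0.21). CPT2, the second carnitine palmitoyltransferase, rose in shBUB3 by 0.58 ± 0.04 (adjusted p = 3.8e-07) and in shFOXA1 by 0.27 ± 0.04 (adjusted p = 1.7e-04).

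HADHA and HADHB encode the alpha and beta subunits of the mitochondrial trifunctional protein, which completes the oxidation of long chains, and lie head to head on chromosome 2. HADHB (chromosome 2, 26243170 to 26290468, plus strand) was at 52.3, 50.1 and 49.1 in pLKO and 113, 112 and 112 in shUSP7, by 1.14 ± 0.06 (adjusted p = 2.0e-08). HADHA (26190635 to 26244726, minus strand) was at 55.2, 56.1 and 53.6 and 58.3, 57.0 and 59.3 in the same groups, by 0.08 ± 0.06 (adjusted p = 0.249). The groups were apart for both genes, but the change of HADHA did not pass the test. In shBUB3 both rose, HADHA by 0.79 ± 0.06 (adjusted p = 3.0e-07) and HADHB by 0.88 ± 0.06 (adjusted p = 1.5e-07). In shFOXA1 HADHA rose by 0.39 ± 0.06 (adjusted p = 8.3e-05) and HADHB had 0.05 ± 0.06 (adjusted p = 0.469). Levels of the pair in the pLKO control were 55.0 ± 1.27 and 50.5 ± 1.63. Their annotated spans overlap on opposite strands, so reads in the shared stretch cannot be assigned with certainty.

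The stretch covered by both promoter windows is shown because 1 side of it rose in shUSP7 and the other did not pass the test. It is written on the plus strand, HADHB starts to its right and HADHA to its left, and no capital is present because it held none of the 5 motifs searched.
HADHA and HADHB chr2:26244689-26244882 (+): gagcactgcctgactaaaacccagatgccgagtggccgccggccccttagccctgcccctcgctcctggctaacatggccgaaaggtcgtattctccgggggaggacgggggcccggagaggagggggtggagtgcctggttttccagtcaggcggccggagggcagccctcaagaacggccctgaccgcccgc
This stretch is 194 bases long, and the starts in RefSeq lie 307 bases apart.

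**Figure D3:**
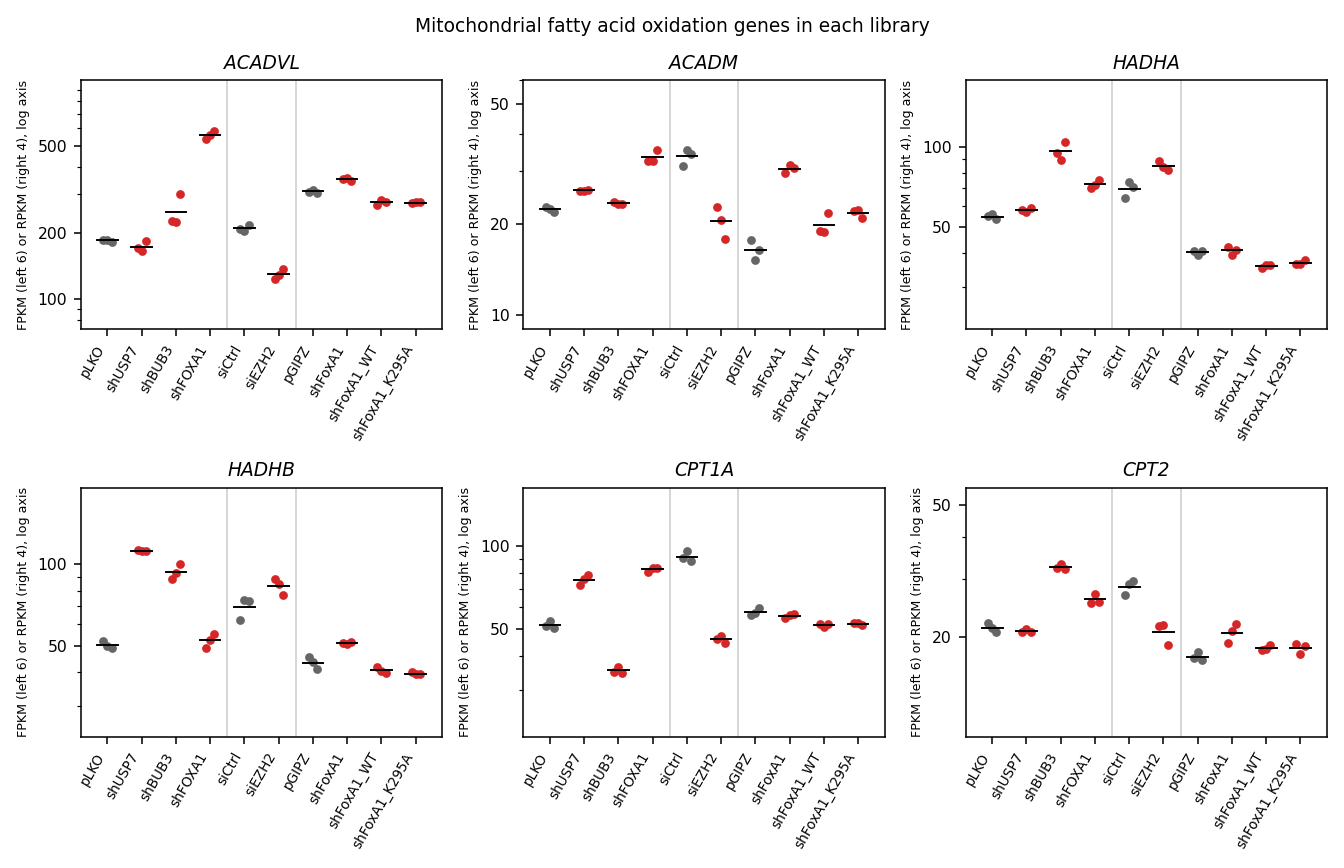
Level of ACADVL, ACADM, HADHA, HADHB, CPT1A and CPT2 in each of the 30 libraries (points; controls grey, other groups red) with group means (lines), as FPKM in the left 6 groups and RPKM in the right 4, on log axes that differ between panels. ACADVL stands at 535 to 586 in shFOXA1 against 183 to 186 in pLKO, ACADM is above its control in both FOXA1 knockdowns, and HADHB is highest in shUSP7.

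Among the glycerolipid genes LPIN1 had the deepest fall. LPIN1, a phosphatidate phosphatase that makes diacylglycerol, was at 17.7, 17.1 and 18.8 in pLKO and 7.12, 6.42 and 5.92 in shUSP7, with no overlap and a change of -1.34 ± 0.08 (adjusted p = 7.8e-08). It fell in shBUB3 by -0.74 ± 0.08 (adjusted p = 1.0e-05). In shFOXA1 it had -0.26 ± 0.08 (adjusted p = 0.0144), a call that median-ratio scaling ended (-0.09, adjusted p = 0.331), as did leaving out the third pLKO library (adjusted p = 0.0557). In shFoxA1 it rose from 14.0, 14.0 and 14.5 to 18.0, 18.0 and 17.5, by 0.31 ± 0.04 (adjusted p = 2.2e-05). DGAT1 and DGAT2, which add the last acyl chain of triglyceride, were both higher in shUSP7 (0.39 ± 0.06 (adjusted p = 1.7e-04) and 0.45 ± 0.06 (adjusted p = 7.3e-05)) and in shBUB3 (0.49 ± 0.06 (adjusted p = 2.7e-05) and 0.40 ± 0.06 (adjusted p = 1.5e-04)). In shFoxA1 they parted, with DGAT1 lower (-0.39 ± 0.04 (adjusted p = 9.9e-06)) and DGAT2 higher (0.45 ± 0.04 (adjusted p = 1.0e-06)). AGPAT2, an acyltransferase of phosphatidate synthesis, rose in siEZH2 from 16.6 ± 1.26 to 26.8 ± 2.64, by 0.66 ± 0.09 (adjusted p = 1.1e-04), and fell in shFoxA1 by -0.51 ± 0.05 (adjusted p = 4.1e-06). GPAM, the mitochondrial acyltransferase of the first step, fell in shBUB3 by -0.65 ± 0.11 (adjusted p = 3.1e-04) and in shFOXA1 by -0.61 ± 0.11 (adjusted p = 4.5e-04).

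The regulators of the synthetic arm did not all move with it. SREBF1 was at 144 ± 2.82 in pLKO, 75.1 ± 1.89 in shUSP7, 75.3 ± 4.61 in shBUB3 and 147 ± 3.56 in shFOXA1. It fell in shUSP7 (-0.93 ± 0.05 (adjusted p = 4.1e-08)) and shBUB3 (-0.93 ± 0.05 (adjusted p = 3.8e-08)), and in shFOXA1 it had 0.03 ± 0.05 (adjusted p = 0.598). SREBF2 fell in shUSP7 (-1.13 ± 0.05 (adjusted p = 5.2e-09)) and shBUB3 (-1.19 ± 0.05 (adjusted p = 3.2e-09)), and in shFOXA1 it had -0.11 ± 0.05 (adjusted p = 0.0809), a value that median-ratio scaling turned to 0.07. Against shUSP7, shFOXA1 was higher by 0.96 ± 0.05 (adjusted p = 2.3e-08) for SREBF1 and 1.03 ± 0.05 (adjusted p = 8.7e-09) for SREBF2. INSIG1 fell in all 3, from 49.6 ± 2.33 in pLKO to 16.2 ± 0.656, 22.3 ± 1.38 and 18.0 ± 0.411, by -1.56, -1.12 and -1.41. In siEZH2 SREBF1, SREBF2 and INSIG1 were lower by -0.70 ± 0.09 (adjusted p = 1.1e-04), -0.90 ± 0.07 (adjusted p = 2.7e-06) and -0.88 ± 0.08 (adjusted p = 7.4e-06). In shFoxA1 the falls were -0.28 ± 0.02 (adjusted p = 1.8e-07), -0.35 ± 0.03 (adjusted p = 4.8e-06) and -0.41 ± 0.04 (adjusted p = 1.7e-06). SCD was at its lowest in shFOXA1, where neither SREBF1 nor SREBF2 RNA passed the test against pLKO and INSIG1 fell. The libraries do not measure the proteins of SREBF1 and SREBF2, and the part of these factors in the fall of SCD was not tested.

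MLXIPL, which encodes the carbohydrate-responsive factor ChREBP, and PPARG, a lipid-activated nuclear receptor, had low levels. MLXIPL was at 2.26 ± 0.135 in pLKO and 0.932 ± 0.238 in shFOXA1, by -0.76 ± 0.09 (adjusted p = 1.5e-05), and at 2.53 ± 0.0610 in pGIPZ and 0.858 ± 0.196 in shFoxA1, by -0.93 ± 0.08 (adjusted p = 1.9e-06). It also fell in shUSP7 (-0.97 ± 0.09 (adjusted p = 2.9e-06)) and shBUB3 (-0.68 ± 0.09 (adjusted p = 5.1e-05)). PPARG fell in shFOXA1 by -0.62 ± 0.09 (adjusted p = 6.2e-05) and in shFoxA1 by -0.61 ± 0.09 (adjusted p = 1.7e-04), and in shUSP7 and shBUB3 it had 0.07 ± 0.09 (adjusted p = 0.526) and 0.00 ± 0.09 (adjusted p = 0.985). In siEZH2 MLXIPL had 0.22 ± 0.13 (adjusted p = 0.158) and PPARG -0.31 ± 0.11 (adjusted p = 0.0303).

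Neighbouring pathways were read from 5 further lists, chosen with earlier results of these data known. Of 22 cholesterol synthesis genes tested, 2 rose and 16 fell in shUSP7, 11 and 4 in shBUB3, 1 and 15 in shFOXA1, 0 and 18 in siEZH2, and 1 and 18 in shFoxA1. Their medians were -0.47, 0.17, -0.48, -0.53 and -0.25, and those of all genes -0.02, 0.01, -0.15, -0.16 and 0.00. Of all genes 29.1% and 33%, 33.3% and 32%, 25.2% and 45.1%, 20.3% and 43%, and 25% and 24.2% were higher and lower in these comparisons. EBP, a sterol isomerase, had the largest change of this list in shUSP7 (-1.56 ± 0.15 (adjusted p = 2.5e-06)) and PMVK, a kinase of the mevalonate pathway, in shFOXA1 (-1.96 ± 0.16 (adjusted p = 4.7e-07)).

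Of 28 other fatty acid oxidation genes tested in the pLKO experiment, 10 rose and 8 fell in shUSP7, 13 and 8 in shBUB3, and 10 and 9 in shFOXA1. The medians were 0.05, 0.14 and -0.03, beside -0.02, 0.01 and -0.15 for all genes, of which the shares higher and lower were those just given. In siEZH2 3 rose and 16 fell of 28, and in shFoxA1 6 and 8 of 29. CROT, the carnitine octanoyltransferase of peroxisomes, had the largest rise, from 8.99 in pLKO to 58.3 in shUSP7, by 2.57 ± 0.06 (adjusted p = 8.4e-11). ACADS, the short-chain dehydrogenase, rose in shBUB3 (1.49 ± 0.10 (adjusted p = 1.5e-07)) and ECHS1, the enoyl-CoA hydratase, fell there (-1.39 ± 0.11 (adjusted p = 4.3e-07)). CRAT, the carnitine acetyltransferase, fell in shFoxA1 (-1.19 ± 0.08 (adjusted p = 2.4e-07)).

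The remaining lists held both directions, and are to be read against the same all-gene shares. Of 23 SREBP and lipid regulators tested in the pLKO experiment, 5 rose and 10 fell in shUSP7, 5 and 9 in shBUB3 and 4 and 11 in shFOXA1, with 4 and 15 of 23 in siEZH2 and 6 and 12 of 21 in shFoxA1. THRSP, a lipogenic protein, fell in shUSP7 from 2.96 to 0.245, by -1.67 ± 0.16 (adjusted p = 2.4e-06), and rose in shFoxA1 by 1.99 ± 0.13 (adjusted p = 2.0e-07). Of other genes of acyl-CoA handling, elongation and uptake, 3 rose and 7 fell of 15 in shUSP7, 6 and 5 of 15 in shBUB3, 3 and 8 of 15 in shFOXA1, 2 and 9 of 14 in siEZH2, and 3 and 8 of 14 in shFoxA1. DBI, the acyl-CoA binding protein, fell in siEZH2 by -2.00 ± 0.09 (adjusted p = 1.3e-07), and SLC27A2, a very long chain acyl-CoA synthetase, fell in shFOXA1 by -1.83 ± 0.09 (adjusted p = 1.1e-08). Of other glycerolipid and lipid droplet genes, 4 rose and 4 fell of 13 in shUSP7, 5 and 5 of 13 in shBUB3, 4 and 7 of 13 in shFOXA1, 2 and 8 of 14 in siEZH2, and 1 and 5 of 14 in shFoxA1. PNPLA2, the triglyceride lipase ATGL, rose in shFOXA1 (1.12 ± 0.09 (adjusted p = 6.7e-07)) and fell in siEZH2 (-1.08 ± 0.08 (adjusted p = 2.5e-06)).

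FOXA1 was knocked down in both shRNA experiments, with separate controls and separate tables, which allows the members to be set side by side. Of 34 members tested in both, 19 were lower in shFOXA1 against pLKO and 13 in shFoxA1 against pGIPZ, and 11 were lower in both, 57.9% of the first list and 84.6% of the second. Of all genes lower in each, 34.8% and 65.1% were shared. Those 11 were ACLY, ACACA, FASN, ELOVL6, ELOVL7, HSD17B12, SCD, FADS1, ACSL1, ACSL3 and AGPAT2, though median-ratio scaling ended the call of AGPAT2 in shFOXA1 (adjusted p = 0.0822). Each list of higher members had 11 genes, and 8 were in both, 72.7% of each: ELOVL1, TECR, SCD5, FADS3, CPT2, ACADM, ACADVL and DGAT2. Of all genes higher in each, 44.5% and 43.9% were shared. In shFoxA1 the calls of ELOVL1, TECR and FADS3 were each lost without the first pGIPZ library (adjusted p = 0.0671, 0.0567 and 0.0684) and without 1 shFoxA1 library, the first for ELOVL1 (0.0583), the second for TECR (0.0626) and the third for FADS3 (0.0618). FADS2 and LPIN1 were called in both with opposite sign. Across the 34 members the log2 fold changes correlated at r = 0.681 and rho = 0.744, and across all 12042 genes tested in both at r = 0.413. These are descriptions over genes, which are not independent, and the members' values span the whole range of levels in the same libraries.

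**Figure D4:**
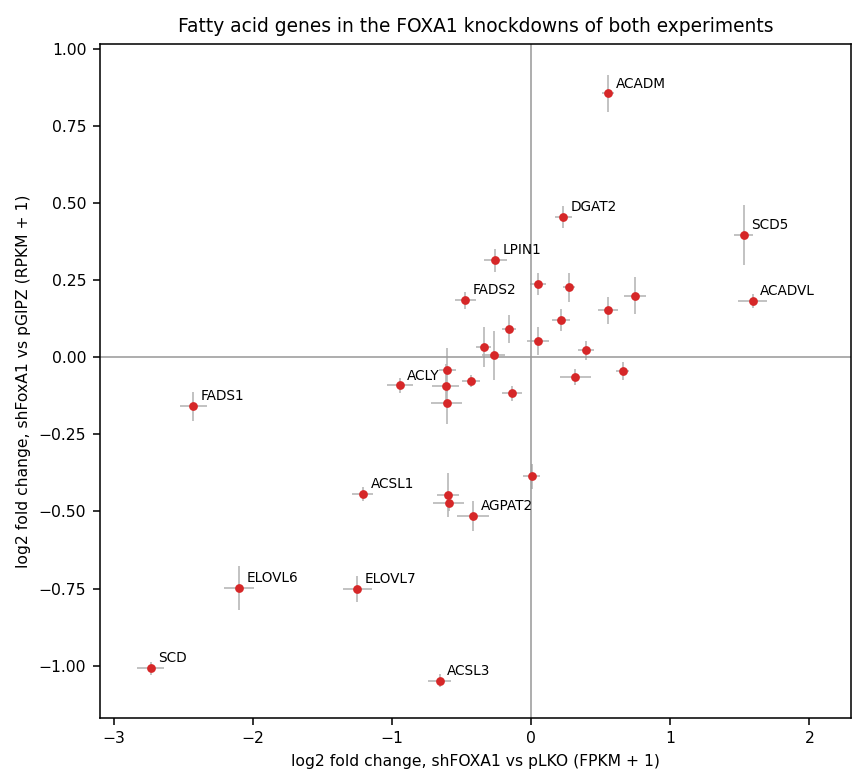
Log2 fold change of 34 member genes in shFOXA1 against pLKO (horizontal axis) and in shFoxA1 against pGIPZ (vertical axis), with bars of 1 SE and names for genes the text describes. SCD, ELOVL6 and ELOVL7 lie at the lower left, SCD5, ACADVL and ACADM at the upper right, FADS1 is far to the left but near 0 on the vertical axis, and the vertical axis covers a smaller range.

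The pGIPZ experiment also shows the members with FOXA1 put back. Against pGIPZ, 7 of 34 members were higher and 10 lower in shFoxA1 WT, where 33.7% and 11.8% of all genes were, with 45.5% called. In shFoxA1 K295A 9 were higher and 15 lower, where 37.8% and 12.8% of all genes were, with 50.5% called. With median-ratio scaling the members were 4 higher and 18 lower in shFoxA1 WT and 5 higher and 21 lower in shFoxA1 K295A, and the share of higher genes among all called went from 74.0% to 47.8% and from 74.7% to 48.4%. None of the members (0 lower and 0 higher in either group) was called and 2-fold changed against pGIPZ, where 0.852% of all genes were 2-fold lower and 0.486% higher in shFoxA1 WT and 0.764% and 0.509% in shFoxA1 K295A.

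Against shFoxA1, 14 members were higher and 13 lower in shFoxA1 WT, where 36.6% and 18.9% of all genes were, with 55.5% called. In shFoxA1 K295A the counts were 15 and 13, where 38.7% and 18.3% of all genes were, with 56.9% called. Median-ratio scaling changed the share of higher genes among all called from 65.9% to 48.9% and from 67.9% to 48.3%, and the members to 12 and 13 and to 14 and 13. At least 2-fold changes were 1 higher and 0 lower in shFoxA1 WT (1.11% and 2.14% of all genes) and 1 and 0 in shFoxA1 K295A (1.16% and 2.07%). The 6 oxidation members and the 29 other fatty acid oxidation genes tested differed in direction. Of the 29, 16 rose and 5 fell in shFoxA1 WT and 17 and 5 in shFoxA1 K295A, with medians of 0.18 and 0.19. All 6 oxidation members were lower than in shFoxA1 with either construct (6 of 6), with medians of -0.26 and -0.25 beside all-gene medians of 0.08 and 0.10. Among them the call of CPT2 was lost without the second or the third shFoxA1 library with either construct (adjusted p = 0.0568 to 0.0914), without the first or second shFoxA1 WT library (0.0618 and 0.0529) and without the second shFoxA1 K295A library (0.074). Each value below uses the same shFoxA1 libraries as the knockdown above, so the 2 steps are not independent.

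SCD was at 131, 129.8 and 127 in shFoxA1 WT and 121, 119.5 and 119.9 in shFoxA1 K295A, between the knockdown and the control, without overlap with either. Against shFoxA1 this was 0.77 ± 0.02 (adjusted p = 8.8e-11) and 0.67 ± 0.02 (adjusted p = 3.1e-10), and against pGIPZ -0.24 ± 0.02 (adjusted p = 5.4e-06) and -0.34 ± 0.02 (adjusted p = 2.7e-07). ACSL3 was likewise between, at 106, 106 and 106 and 97.7, 96.4 and 96.6, with 0.88 ± 0.02 (adjusted p = 3.1e-11) and 0.75 ± 0.02 (adjusted p = 1.1e-10) against shFoxA1. ELOVL6 rose from 6.58, 6.22 and 6.88 in shFoxA1 to 9.64, 8.46 and 8.42 and 8.04, 8.11 and 8.96. Against pGIPZ it was still lower, by -0.37 ± 0.07 (adjusted p = 0.00146) and -0.44 ± 0.07 (adjusted p = 3.8e-04).

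ELOVL7 went beyond its control. It was at 17.3, 16.0 and 18.3 in pGIPZ, 9.68, 9.75 and 9.99 in shFoxA1, 30.2, 30.2 and 29.3 in shFoxA1 WT and 26.7, 25.8 and 26.5 in shFoxA1 K295A, and none of the 4 groups overlapped. Against shFoxA1 the rises were 1.52 ± 0.04 (adjusted p = 1.0e-10) and 1.34 ± 0.04 (adjusted p = 3.1e-10), and against pGIPZ 0.76 ± 0.04 (adjusted p = 9.8e-08) and 0.59 ± 0.04 (adjusted p = 8.7e-07). ELOVL5 moved the other way and did not return. It was at 241, 235 and 237 in pGIPZ, 219, 216 and 222 in shFoxA1, 147, 152 and 152 in shFoxA1 WT and 143, 146 and 139 in shFoxA1 K295A, with -0.54 ± 0.02 (adjusted p = 4.0e-09) and -0.62 ± 0.02 (adjusted p = 1.4e-09) against shFoxA1. ACADM came down from 30.6 ± 0.850 to 19.9 ± 1.69 and 21.8 ± 0.743, by -0.60 ± 0.06 (adjusted p = 6.1e-06) and -0.47 ± 0.06 (adjusted p = 4.2e-05). Among the regulators, MLXIPL rose over shFoxA1 by 1.24 ± 0.08 (adjusted p = 1.3e-07) and 1.29 ± 0.08 (adjusted p = 9.4e-08), and PPARG by 1.09 ± 0.09 (adjusted p = 1.3e-06) and 1.16 ± 0.09 (adjusted p = 7.9e-07), each to above the pGIPZ level. SREBF1 and SREBF2 stayed under pGIPZ, at -0.18 and -0.15 in shFoxA1 WT and -0.18 and -0.17 in shFoxA1 K295A (all called). INSIG1 had 0.21 ± 0.04 (adjusted p = 5.2e-04) and 0.09 ± 0.04 (adjusted p = 0.0475), the latter -0.03 with median-ratio scaling.

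**Figure D5:**
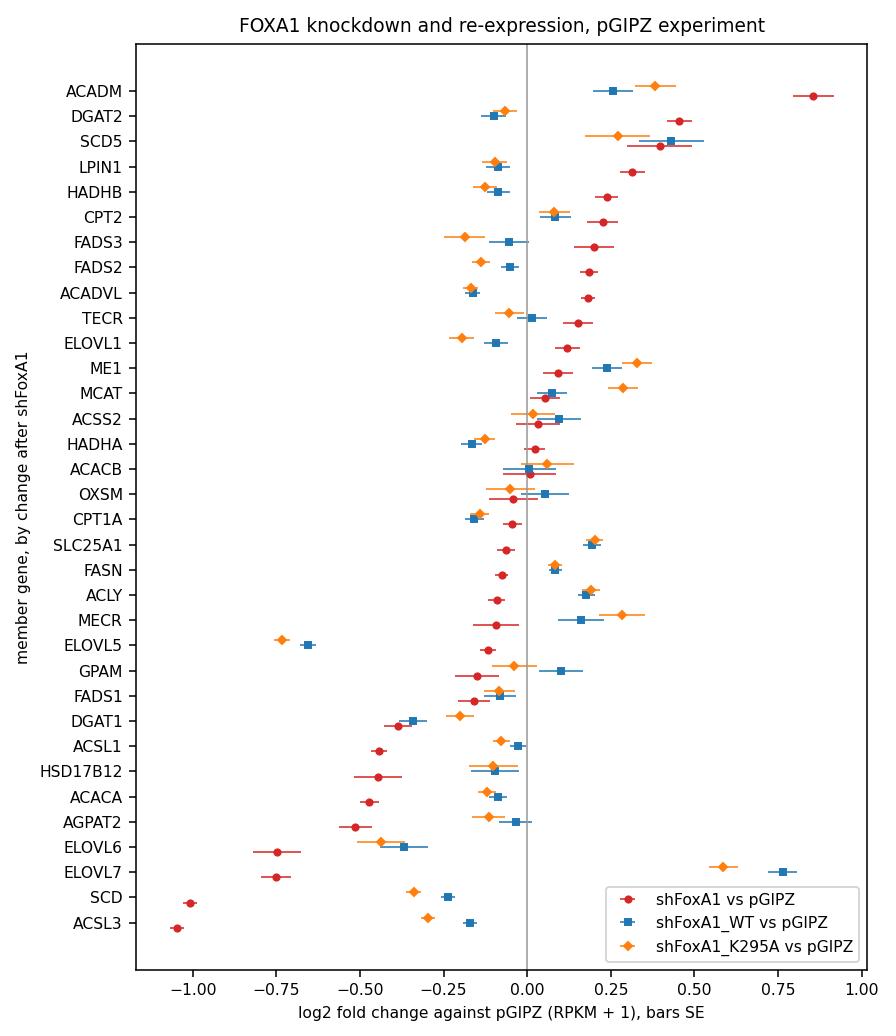
Log2 fold change against pGIPZ of 34 member genes in shFoxA1 (red circles), shFoxA1 WT (blue squares) and shFoxA1 K295A (orange diamonds), ordered by the change in shFoxA1, with bars of 1 SE. For SCD and ACSL3 the squares and diamonds lie nearer to 0 than the circles, for ELOVL7 they lie to the right of 0, and for ELOVL5 they lie further left.

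The 2 re-expressed forms were compared directly for all members. In shFoxA1 K295A against shFoxA1 WT no member was called by limma (0 higher and 0 lower of 34), where 0.183% of all 12563 genes were (23 genes), 0.0876% higher and 0.0955% lower, with 0.0239% at least 2-fold lower and 0% at least 2-fold higher. At an unadjusted p under 0.05 there were 9 members of 34, and 10.4% of all genes (1310). The members' log2 fold changes ran from -0.18 to 0.21, and a p above the threshold does not show that the forms act alike. ACSL3, at 106 ± 0.328 and 96.9 ± 0.687, came nearest with -0.13 ± 0.02 (adjusted p = 0.0501), and passed with a pseudocount of 0.1 (adjusted p = 0.047), a filter at 5 (0.0425) or median-ratio scaling (0.0145). SCD, at 129 ± 2.27 and 120.2 ± 0.871, had -0.10 ± 0.02 (adjusted p = 0.122) and passed with median-ratio scaling (0.0299). The groups did not overlap for 12 of the 34 members, 9 of them lower and 3 higher in shFoxA1 K295A. Of all genes 16.0% did not overlap, 683 of them lower and 1321 higher, and 0.183% were called. ACSL3, SCD and ELOVL7 were among the 9. MCAT, at 22.9, 23.2 and 21.2 in shFoxA1 K295A against 19.5, 18.4 and 19.8, was among the 3 and had the largest change of any member, 0.21 ± 0.04 (adjusted p = 0.122).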

How the data were processed

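The values are those the authors deposited: FPKM for the 18 libraries of the pLKO and siRNA experiments and RPKM for the 12 libraries of the pGIPZ experiment. Per the labels, total RNA was taken with the nucleospin kit, libraries were made with NEBNext Ultra RNA and sequenced on a HiSEQ4000. Per the submitters' processing notes, reads were aligned with STAR to hg38. No source used here gives the STAR version, the counter, the annotation or the strand setting. Each table held 26475 gene symbols, and the 26443 with values were used (32 had none). No 2 libraries were identical (0 pairs), and no column was without a sample (0).

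Values were taken as log2(value + 1). An experiment's genes that reached 1 in 3 or more of its libraries were tested in limma 3.58.1 (R 4.3.3), 1 fit per experiment with a term per group and an intensity trend, two-sided, with Benjamini-Hochberg adjustment over all genes tested in each of 10 comparisons and 3 direct contrasts within the pLKO experiment. Adjusted p under 0.05 was called. The fit was also run on simulated pairs of groups with far fewer changed genes than were called in the knockdowns here. That run does not measure the error of the calls reported. Adding 1 understates the fold change of low genes. Totals of reads are unknown, so precision was taken from replicates, and relative depth from the steps between low values. The exact permutation test of 3 against 3 was not used, since it cannot reach the threshold.

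The 38 members and all further lists were chosen with earlier results of these data known. Any member may be named. It is given with the value of every library where it was called with an absolute log2 fold change of at least 1, and otherwise by group values. The targeted genes, SREBF1, SREBF2, INSIG1, MLXIPL and PPARG were to be given in every comparison, but are given only in part in the re-expression comparisons and the direct contrasts, and of each list at most the 2 called genes with the largest change. Promoter windows are from RefSeq (GRCh38.p14), gene positions from GENCODE 29 on GRCh38, and the authors' gene models may not be these. Windows were found for 33 of the 38 members, and not for FASN, OXSM, HSD17B12, DGAT1 and DGAT2. The remaining steps used pandas 2.3.3, NumPy 2.4.6 and SciPy 1.17.1 in Python 3.11.15, with matplotlib 3.10.9 for plots. Alternatives were a pseudocount of 0.1, no filter, a filter at 5, median-ratio scaling, a replicate block, fits of the 2 groups alone and leaving out each replicate.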

Additional observations from a re-analysis of the deposited data

Results flagged for a closer look

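For 4 members every library moved in opposite directions in the FOXA1 knockdowns of the 2 shRNA experiments, with the knockdown libraries all above the controls in one experiment and all below them in the other. SLC25A1 had a log2 fold change of 0.32 in shFOXA1 and -0.06 in shFoxA1, where it was not called, and its call in shFOXA1 was lost without the first or the third pLKO or the second or the third shFOXA1 library (adjusted p = 0.0625 to 0.071). ME1 had -0.16 and 0.09, again not called in shFoxA1, and median-ratio scaling took the value in shFOXA1 to 0.01. FADS2 had -0.47 in shFOXA1 and 0.18 in shFoxA1, and LPIN1 had -0.26 and 0.31, both called in both experiments. The difference between the experiments was not tested, because their values come from separate tables. The experiments also differ in vector, in unit and in how far FOXA1 RNA fell (-0.96 and -0.67), and the part of these in the 4 differences was not tested.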

How the results depend on the processing

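The limits of these values are 3 libraries per group, unknown read totals and unknown strand. Over the comparisons against a control and among the re-expression groups, counts of members and of all genes called stayed within 1.5 times of the reported ones except as follows. With median-ratio scaling, shFoxA1 WT against pGIPZ had 4 members higher in place of 7 and 18 lower in place of 10, and shFoxA1 K295A against pGIPZ had 5 higher in place of 9. In siEZH2 the members higher ranged from 2 to 5 when each replicate was left out, with 5 from all libraries: 3 without the first siCtrl library, 3 without the first or the third siEZH2 library and 2 without the second. In shFoxA1 K295A against shFoxA1 WT, the 23 genes called became 11 with no filter, 6 in the fit of the 2 groups alone and 9 to 18 when each replicate was left out (9 without the second shFoxA1 WT library), with the share of higher genes going from 47.8% to 33.3% under median-ratio scaling. Members lower there went from 0 to 1 with a pseudocount of 0.1, 1 with a filter at 5 and 2 with median-ratio scaling.

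Median-ratio scaling turned 6 gene values: ME1 in shFOXA1 against pLKO (0.01), FASN in shFoxA1 WT (-0.025) and shFoxA1 K295A (-0.0441) against pGIPZ, and HSD17B12 (0.1702), ACSL3 (0.011) and DGAT2 (0.0468) in shFOXA1 against shBUB3. By limma, FASN in shFoxA1 K295A (adjusted p = 0.0436) and HSD17B12 (adjusted p = 0.046) were called in the turned direction. FASN in shFoxA1 K295A had been called higher with the deposited scaling. The cause was not tested. 

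Replicate numbers are shared between groups, but same-numbered libraries did not deviate together: over the comparisons the correlation of their deviations ran from -0.185 to 0.126, and not every library correlated best with its own number. A replicate block left 7705 genes called in shUSP7, 8103 in shBUB3, 8731 in shFOXA1, 7393 in siEZH2 and 6011 in shFoxA1, against 7784, 8168, 8808, 7538 and 6186 without it. With the block, shFoxA1 K295A against shFoxA1 WT had 14 genes called. No member count moved by more than 1 with the block.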
